A study of Mus musculus with 6 samples.

Results

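The iron uptake, storage and sensing genes of A375 melanoma cells were described as a group of 9 genes among the 62492 gene identifiers of the deposited table. They are TFRC (ENSG00000072274), SLC11A2 (ENSG00000110911), FTL (ENSG00000087086), FTH1 (ENSG00000167996), NCOA4 (ENSG00000266412), SLC40A1 (ENSG00000138449), ACO1 (ENSG00000122729), IREB2 (ENSG00000136381) and FBXL5 (ENSG00000118564). They are listed by name for their place in cellular iron handling, by a rule that uses no measured value, although earlier results of these data were known when they were chosen. All 9 were found in the table by their Ensembl identifiers. RNA sequencing had been done on 6 libraries of this established human cell line, which carries mutant BRAF. Cells received a lentivirus with Cas9 and a guide RNA, were selected in puromycin at 10 µg/mL and were harvested 7 days after selection. There were 2 libraries with guides against ABCE1, 2 with guides against YAE1, and 2 control libraries with guides against LacZ or Luciferase, which are not human genes. Nothing in the labels tells whether both libraries of a group stem from separate guides, cultures or clones, so each p-value reflects only a spread that could be technical. Mouse is entered as the organism, although cell type and genome build are human. In the second library of either knockout the genotype entry carries a 2 after the gene's root name, so groups follow the titles. The rows of ABCE1 and YAE1 themselves, and melanocyte markers, were not analysed here, because no table used here pairs the identifiers with symbols. The symbols of the 9 genes come with the list that defines them, not from the deposited table. The labels and the loss of the targeted genes were therefore not checked against the data.

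ABCE1 is an ATPase with iron-sulfur clusters that splits ribosomes for reuse, and YAE1 is part of the adaptor, with LTO1, through which the cytosolic iron-sulfur assembly machinery loads it. Cells take up transferrin iron through the transferrin receptor, encoded by TFRC, and SLC11A2 (DMT1) carries the ferrous iron out of endosomes. Iron that is not used is stored in ferritin, a shell of heavy (FTH1) and light (FTL) chains, and NCOA4 carries ferritin to lysosomes when iron has to be released. SLC40A1, ferroportin, exports iron. Supply is sensed by a pair of RNA-binding proteins, IRP1 (ACO1) and IRP2 (IREB2). IRP1 is a cytosolic aconitase while it holds an iron-sulfur cluster and binds RNA when it lacks one, whereas IRP2 is removed by a ubiquitin ligase whose adaptor, FBXL5, is stabilised by iron. Both proteins protect TFRC mRNA from decay through elements in its 3′ untranslated region and block translation of ferritin and ferroportin mRNA through an element in the 5′ untranslated region. Protein amounts and IRP binding were not measured in these libraries.

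The table gives fragment numbers divided by gene model length and by the assigned fragments of the library (FPKM). Levels of different genes are thus comparable only as far as model lengths match the mRNA forms present, which was not tested. Among the 9 genes the smallest lengths that fit the values ran from 871 bases for FTL to 10803 for IREB2. Assigned depth, worked out from the steps in the values with a step assumed to be 0.5 fragments, was 15713011 to 18399718 fragments per library. Over 12578 genes that averaged 1 FPKM or more, log2 values correlated at r = 0.992 to 0.994 within groups and at 0.942 to 0.98 between groups. Differences were tested over those genes with limma on log2(FPKM + 1), a scale that understates changes of low genes, with Benjamini-Hochberg adjustment and a threshold of 0.05. A general shift accompanied both sets of guides. The median gene was 0.10 higher (log2) with ABCE1 and with YAE1 guides than with control guides, and centring the libraries on their median gene moved these medians by -0.14 and -0.10. With ABCE1 guides the test called 4715 genes higher and 2563 lower, against 3271 and 3915 after centring and 3436 and 3571 after quantile normalization. With YAE1 guides it called 4303 higher and 2214 lower, against 3014 and 3124 after centring and 3124 and 2865 after quantile normalization. Between YAE1 and ABCE1 guides the counts were 1928 higher and 2351 lower, against 2395 and 1882 after centring and 1360 and 3121 after scaling to the summed FPKM. FPKM are relative to each library's total, so RNA per cell was not measured, and in bulk RNA a change in every cell and a change in the mix of cells cannot be told apart.

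Of the 9 genes 8 reached the mean of 1 FPKM and were tested. The ferritin pair rose most among them with both sets of guides. With ABCE1 guides all 8 passed the test, 7 of them higher than in controls and 1 lower, where 57.9% of all tested genes passed, 37.5% higher and 20.4% lower. The median log2 change of the 8 genes was 0.31, against 0.10 over all tested genes. With YAE1 guides 5 were higher, 1 was lower and 2 did not pass, where 51.8% of all tested genes passed, 34.2% higher and 17.6% lower. Here the median log2 change was 0.33, against 0.10 over all tested genes. After centring, 4 were higher and 1 lower with ABCE1 guides, and 5 were higher and 2 lower with YAE1 guides. Quantile normalization gave 6 higher and 1 lower with ABCE1 guides and 5 higher and 0 lower with YAE1 guides. After scaling to the summed FPKM of all genes but these 9, an alternative chosen after seeing the data, 7 were higher and 0 lower with ABCE1 guides, and 5 were higher and 1 lower with YAE1 guides. Over all tested genes that scaling gave 4827 higher and 2456 lower with ABCE1 guides, and 3730 and 2589 with YAE1 guides. For all 8 genes the knockout libraries did not overlap with the control libraries in either comparison, which held for 81.5% of all tested genes with ABCE1 guides and 77.7% with YAE1 guides. The 2 comparisons share their control libraries.

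**Figure D1:**
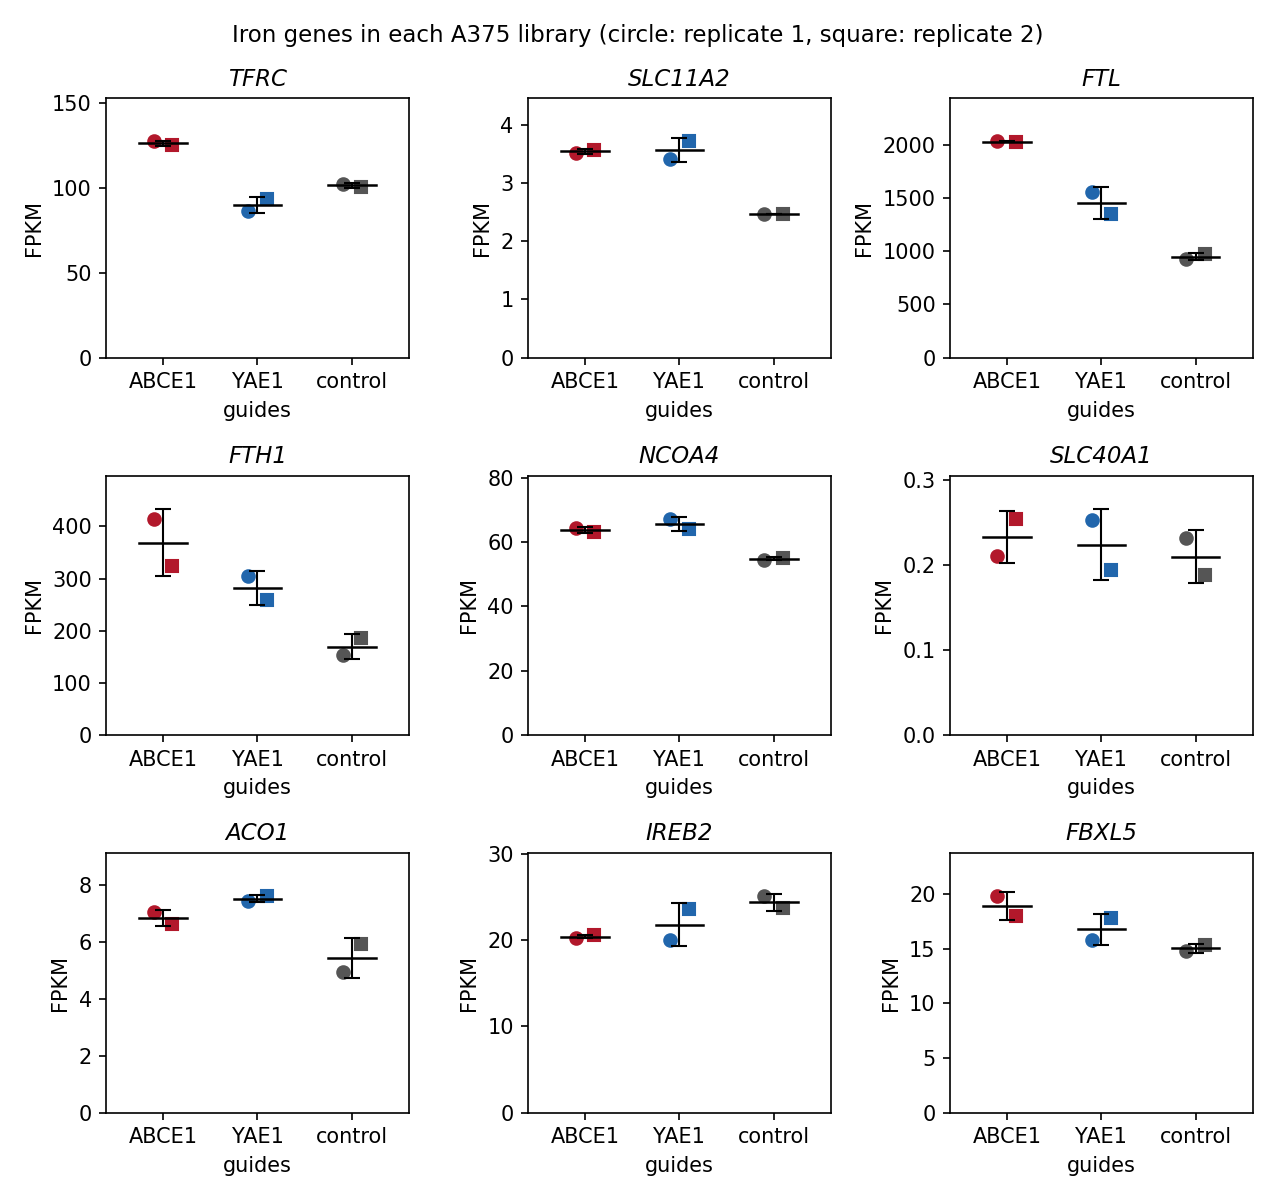
FPKM of the 9 iron genes (vertical axes, from 0) in the libraries with ABCE1, YAE1 and control guides. Circles are replicate 1, squares replicate 2, horizontal lines the mean and bars the SD (n = 2). FTL and FTH1 stand highest with ABCE1 guides, next with YAE1 guides and lowest in controls, while TFRC lies at 125 to 127 FPKM with ABCE1 guides, 86.5 to 93.3 with YAE1 guides and 100 to 102 in controls.

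The order of the levels was the same in the 3 groups. FTL was highest per length, followed by FTH1, TFRC, NCOA4, IREB2, FBXL5, ACO1, SLC11A2 and SLC40A1. No neighbours in this order overlapped in their libraries within a group. The closest were IREB2 and FBXL5 with ABCE1 guides, whose means differed 1.08-fold. The order rests on the gene model lengths. In control replicate 1, for example, IREB2 had an estimated 4980.5 fragments and NCOA4, which stands above it per length, 4083. FTL ranked 9th of all identifiers by mean FPKM with ABCE1 guides, 16th with YAE1 guides and 21st in controls. FTH1 ranked 56th with ABCE1 guides, 81st with YAE1 guides and 172nd in controls.

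Storage came first in size of change. FTL, the light chain, which helps the iron core form inside the shell, had 2032 and 2026 FPKM with ABCE1 guides, 1560 and 1350 FPKM with YAE1 guides, and 925 and 971 FPKM in control libraries. The 3 groups did not overlap, with ABCE1 guides highest and control guides lowest. FTL was 2.14-fold higher with ABCE1 guides than in controls, a change of 1.10 ± 0.07 on the log2 scale (SE, limma adjusted p = 5.2e-05). With YAE1 guides it was 1.54-fold higher than in controls (log2 change 0.61 ± 0.07, limma adjusted p = 0.00066).

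FTH1, the heavy chain, carries the ferroxidase activity that oxidises iron on entry. It had 414 and 323 FPKM with ABCE1 guides, 304 and 258 FPKM with YAE1 guides, and 153 and 187 FPKM in control libraries. Again the groups did not overlap and kept the order of FTL, although YAE1 against ABCE1 guides did not pass the test (limma adjusted p = 0.085). The libraries of a group lay further apart than for FTL. The higher library exceeded the lower by 28.1% with ABCE1 guides, 17.8% with YAE1 guides and 22.3% in controls, while counting error was 0.875% to 1.33% per library. FTH1 was 2.17-fold higher with ABCE1 guides than in controls, a change of 1.11 ± 0.15 on the log2 scale (SE, limma adjusted p = 0.00082). With YAE1 guides it was 1.66-fold higher (log2 change 0.73 ± 0.15, limma adjusted p = 0.0063). With no filter on low values the YAE1 call was lost (limma adjusted p = 0.054, range over its settings 5.1e-05 to 0.054). Both ferritin genes have many processed pseudogene copies in the genome, and how the authors' counting treated reads shared with them is not stated in the labels.

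Of 12578 tested genes 425 rose more than FTH1 with ABCE1 guides on the log2 scale, and 438 rose more than FTL. With YAE1 guides 725 rose more than FTH1 and 1097 more than FTL. Together the ferritin genes held 0.972% and 0.934% of all FPKM summed in the ABCE1 libraries, 0.699% and 0.62% with YAE1 guides, and 0.426% and 0.456% in control libraries. The share was thus highest with ABCE1 guides and lowest in controls, with no overlap. The ratio of light to heavy chain mRNA per length was 4.90 and 6.26 with ABCE1 guides, 5.13 and 5.22 with YAE1 guides, and 6.06 and 5.20 in control libraries. These ranges overlapped between all 3 groups. With 2 libraries on each side the smallest p of an exact permutation test is 0.333, so such ratios are given without a test. How often ratios of other genes separate the groups was not counted. Of single tested genes, 81.5% did not overlap with controls with ABCE1 guides and 77.7% with YAE1 guides.

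**Figure D2:**
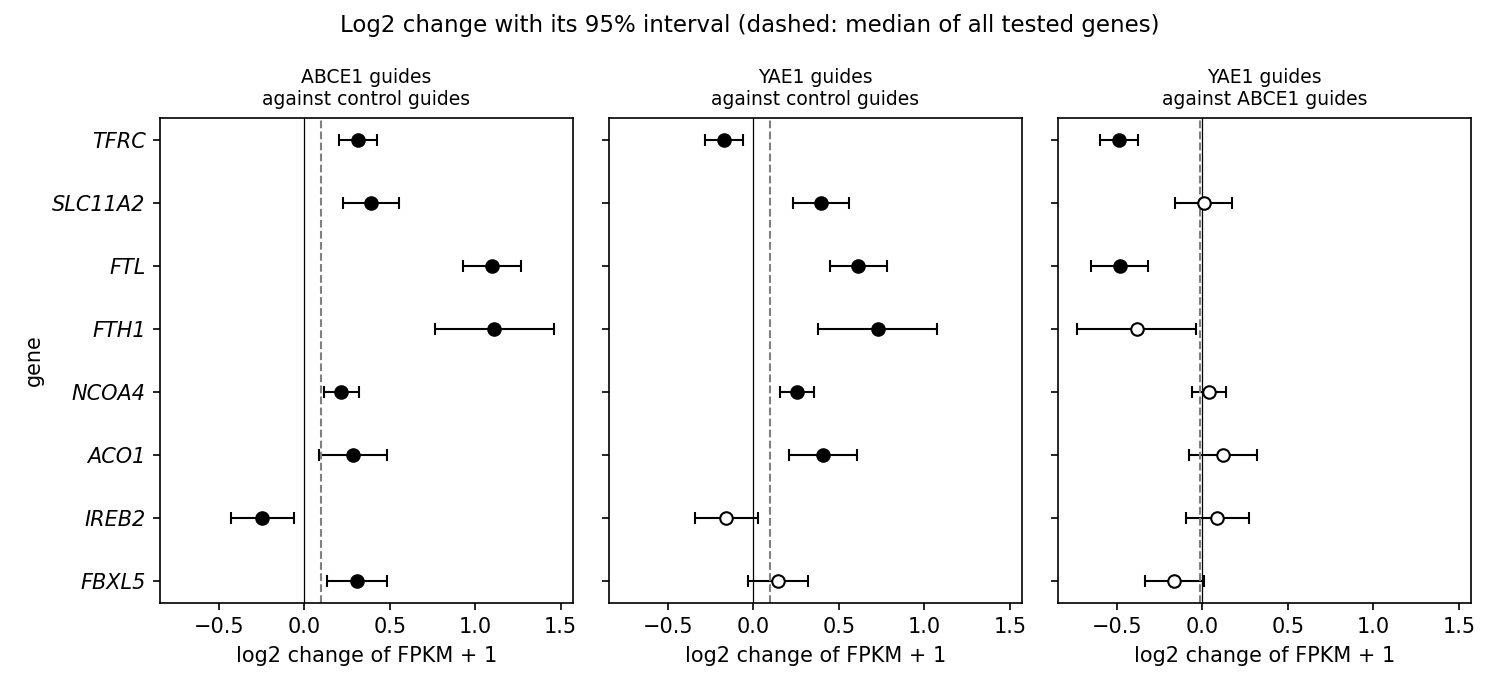
Log2 change of FPKM + 1 (horizontal axes, the same in each panel) with its 95% interval from limma for the 8 tested iron genes. Filled points had an adjusted p under 0.05, and the dashed line is the median of all tested genes (0.10, 0.10 and -0.01). FTL and FTH1 lie farthest right in both comparisons with control guides, and TFRC lies right of 0 with ABCE1 guides and left of 0 with YAE1 guides.

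Turnover of ferritin and export of iron were each represented by 1 gene. NCOA4, the receptor that takes ferritin into autophagosomes, had 64.5 and 63.1 FPKM with ABCE1 guides, 67.2 and 64.0 FPKM with YAE1 guides, and 54.4 and 55.1 FPKM in control libraries. Both knockouts were above the controls and overlapped with each other. The log2 change was 0.22 ± 0.04 with ABCE1 guides (SE, limma adjusted p = 0.0046) and 0.26 ± 0.04 with YAE1 guides (SE, limma adjusted p = 0.0029). The ABCE1 call was lost after centring on the median gene (0.08, limma adjusted p = 0.19, range over its settings 0.0011 to 0.19), while the YAE1 call was kept (0.16, limma adjusted p = 0.028). Set against summed ferritin, NCOA4 mRNA stood at 2.64% and 2.69% with ABCE1 guides, 3.61% and 3.98% with YAE1 guides, and 5.05% and 4.76% in control libraries. NCOA4 was thus lowest relative to ferritin with ABCE1 guides and highest in controls, while its own level was lowest in controls.

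SLC40A1, ferroportin, the iron exporter, was near the floor of detection. It had 0.211 and 0.255 FPKM with ABCE1 guides, 0.254 and 0.194 FPKM with YAE1 guides, and 0.232 and 0.188 FPKM in control libraries. These came from an estimated 7 to 9.5 fragments per library, in assumed steps of 0.5, and all groups overlapped. The estimate takes the smallest gene length that fits the values, so the true numbers could be a multiple of it. The summed 16.5 fragments with ABCE1 guides, 16 with YAE1 guides and 16 in controls have 95% Poisson intervals of 9.52 to 26.6, 9.15 to 26.0 and 9.15 to 26.0 fragments, which cover counting error only. With no filter, where SLC40A1 enters the test, the log2 change was 0.027 with ABCE1 guides (limma adjusted p = 0.85) and 0.016 with YAE1 guides (limma adjusted p = 0.96). At this level the 1 added to FPKM outweighs the value, so these changes are strongly compressed and say little. Mean FPKM was 1.11-fold and 1.07-fold that of controls. No difference in ferroportin mRNA was detected, and one within these intervals was out of reach at this depth.

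On the uptake side TFRC, the transferrin receptor, moved in opposite directions with the 2 sets of guides. It had 127 and 125 FPKM with ABCE1 guides, 86.5 and 93.3 FPKM with YAE1 guides, and 102 and 100 FPKM in control libraries. ABCE1 libraries lay above and YAE1 libraries below the controls, without overlap. With ABCE1 guides TFRC was 1.25-fold higher than in controls, a change of 0.31 ± 0.05 on the log2 scale (SE, limma adjusted p = 0.0015). That call held in all 16 settings, a number that includes the reported fit for each gene. Some of the settings leave the change itself as it is and can move only its p-value. On the log2 scale TFRC was 0.18 higher after centring (limma adjusted p = 0.016) and 0.45 higher with quantile normalization. With YAE1 guides it fell by 0.17 ± 0.05 on the log2 scale (SE, limma adjusted p = 0.021). That call was lost without control replicate 1 (-0.16, limma adjusted p = 0.12), without control replicate 2 (-0.19, limma adjusted p = 0.073), with no filter (limma adjusted p = 0.079) and with quantile normalization (-0.11, limma adjusted p = 0.14). Over its 16 settings the adjusted p ran from 0.0035 to 0.14 and the change kept its sign.

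Relative to ferritin, the receptor was lower with both sets of guides. With ABCE1 guides TFRC itself rose, by less than FTH1 and FTL (log2 change 0.31 against 1.11 and 1.10). TFRC stood at 5.20% and 5.33% of summed FTH1 and FTL per length with ABCE1 guides, 4.64% and 5.80% with YAE1 guides, and 9.50% and 8.67% in control libraries. All 4 knockout libraries were below both controls, and the knockouts overlapped with each other. Separation from controls was common among single tested genes (81.5% with ABCE1 and 77.7% with YAE1 guides).

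SLC11A2, the divalent metal transporter DMT1, one of whose mRNA forms carries an iron-responsive element after the coding region, was low in all libraries. It had 3.51 and 3.57 FPKM with ABCE1 guides, 3.42 and 3.72 FPKM with YAE1 guides, and 2.47 and 2.47 FPKM in control libraries. Both knockouts lay above the controls at like levels. Mean FPKM was 1.44-fold higher with ABCE1 guides and 1.45-fold higher with YAE1 guides. On the log2 scale the changes were 0.39 ± 0.07 (SE, limma adjusted p = 0.0031) and 0.40 ± 0.07 (SE, limma adjusted p = 0.0036), and with a pseudocount of 0.1 they were 0.50 and 0.51. They were smaller after centring (0.25 and 0.30) and after quantile normalization (0.21 and 0.26), and still passed (limma adjusted p = 0.011 to 0.032). Counting error was 4% to 4.82% per library. A table of FPKM per gene does not separate the mRNA forms.

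**Figure D3:**
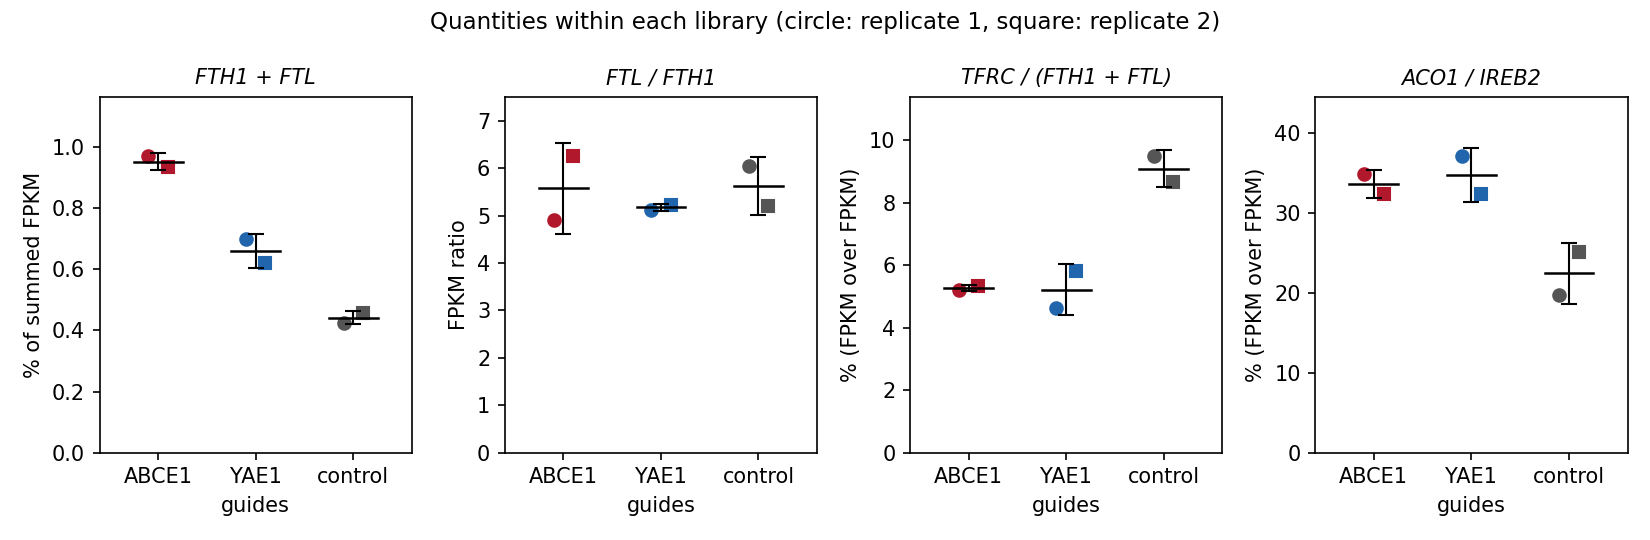
Quantities within each library, from FPKM, with ABCE1, YAE1 and control guides (vertical axes from 0; circles replicate 1, squares replicate 2, lines the mean, bars the SD, n = 2). Ferritin held 0.934% to 0.972% of all FPKM in ABCE1 libraries against 0.426% to 0.456% in controls, the FTL to FTH1 ratio overlapped between groups, TFRC relative to ferritin was lower in all 4 knockout libraries, and ACO1 relative to IREB2 was higher in all 4.

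Among the sensors, ACO1 rose with both sets of guides and IREB2 fell with ABCE1 guides. ACO1, encoding IRP1, had 7.05 and 6.64 FPKM with ABCE1 guides, 7.43 and 7.60 FPKM with YAE1 guides, and 4.94 and 5.94 FPKM in control libraries. YAE1 libraries were highest and controls lowest, without overlap, although YAE1 against ABCE1 guides did not pass the test (limma adjusted p = 0.30). The log2 change was 0.29 ± 0.08 with ABCE1 guides (SE, limma adjusted p = 0.023) and 0.41 ± 0.08 with YAE1 guides (SE, limma adjusted p = 0.0069). The YAE1 call held in all 16 settings. The ABCE1 call was lost in 6 of 16, among them centring (0.15, limma adjusted p = 0.16), quantile normalization (0.15, limma adjusted p = 0.14) and the fits without control replicate 1 (0.18, limma adjusted p = 0.11), ABCE1 replicate 1 (0.25, limma adjusted p = 0.11) or ABCE1 replicate 2 (0.33, limma adjusted p = 0.054). Over the 16 settings its adjusted p ran from 0.0031 to 0.16.

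IREB2, encoding IRP2, had 20.2 and 20.5 FPKM with ABCE1 guides, 20.0 and 23.5 FPKM with YAE1 guides, and 25.1 and 23.7 FPKM in control libraries. All 4 knockout libraries were below both controls, the second YAE1 library by a small margin. With ABCE1 guides IREB2 fell by 0.25 ± 0.08 on the log2 scale (SE, limma adjusted p = 0.031). This call was lost without any 1 of the 4 libraries compared (-0.28 to -0.21, limma adjusted p = 0.063 to 0.15), with no filter (limma adjusted p = 0.11) and after scaling to the summed FPKM (-0.23, limma adjusted p = 0.055), and strengthened to -0.38 after centring (limma adjusted p = 0.0043). With YAE1 guides the difference was -0.16 (95% interval -0.34 to 0.03) and did not pass (limma adjusted p = 0.13). It passed after centring (-0.26, limma adjusted p = 0.026), with voom on fragments (-0.17, limma adjusted p = 0.046) and without YAE1 replicate 2 (-0.27, limma adjusted p = 0.012), while without YAE1 replicate 1 the difference shrank to -0.047 (limma adjusted p = 0.51). The adjusted p ran from 0.012 to 0.51 over its settings.

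ACO1 mRNA amounted to 34.8% and 32.3% of IREB2 mRNA per length with ABCE1 guides, 37.1% and 32.3% with YAE1 guides, and 19.7% and 25.1% in control libraries. Every knockout library was above both controls, and the knockouts overlapped. Most single tested genes separated from controls as well (81.5% with ABCE1 and 77.7% with YAE1 guides). This ratio is taken within a library, so the scaling between libraries does not enter it.

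FBXL5, the iron-sensing adaptor that marks IRP2 for degradation, had 19.8 and 18.0 FPKM with ABCE1 guides, 15.8 and 17.8 FPKM with YAE1 guides, and 14.7 and 15.3 FPKM in control libraries. ABCE1 libraries were highest, and the YAE1 libraries lay between them and the controls, although YAE1 against ABCE1 guides did not pass the test (limma adjusted p = 0.13). The log2 change was 0.31 ± 0.07 with ABCE1 guides (SE, limma adjusted p = 0.01). That call was lost after centring (0.17, limma adjusted p = 0.076), without control replicate 1 (0.28, limma adjusted p = 0.06) and without ABCE1 replicate 1 (0.24, limma adjusted p = 0.065), the range over its settings being 0.0012 to 0.076. With YAE1 guides the difference was 0.15 (95% interval -0.03 to 0.32) and did not pass (limma adjusted p = 0.14). It passed without YAE1 replicate 1 (0.23, limma adjusted p = 0.047) and was smaller without YAE1 replicate 2 (0.065, limma adjusted p = 0.48) and after centring (0.049, limma adjusted p = 0.59), the range over its settings being 0.047 to 0.59.

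**Figure D4:**
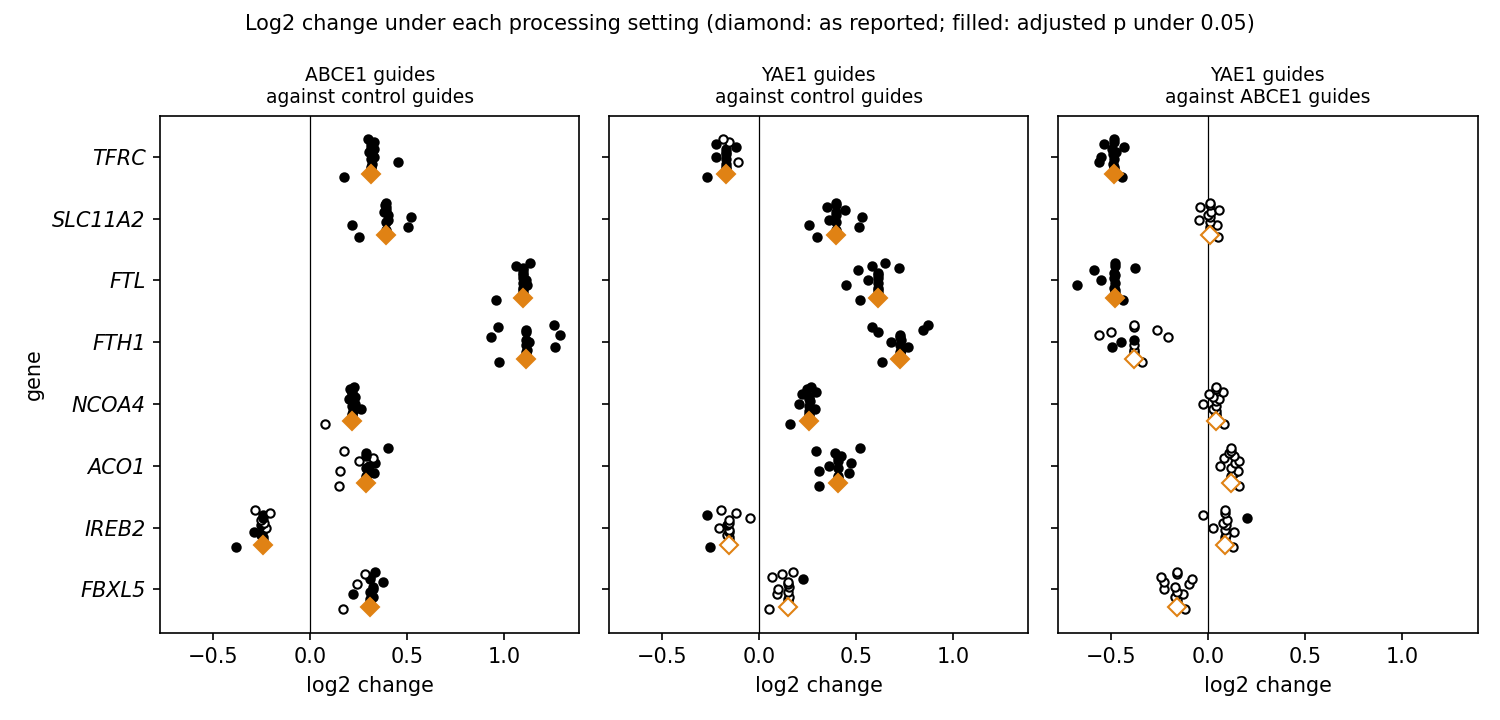
Log2 change of each tested iron gene (horizontal axes, the same in each panel) under every processing setting. Orange diamonds are the values as reported, circles the alternatives, and filled symbols had an adjusted p under 0.05. FTL and FTH1 stay right of 0 in both comparisons with controls, and TFRC stays right of 0 with ABCE1 guides and left of 0 with YAE1 guides. The calls of NCOA4, ACO1, IREB2 and FBXL5 with ABCE1 guides depend on the setting. With YAE1 guides so do those of TFRC, FTH1, IREB2 and FBXL5.

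YAE1 guides were also compared directly with ABCE1 guides. Of the 8 tested genes 2 were lower with YAE1 guides and 0 were higher, where 34.0% of all tested genes passed, 18.7% lower and 15.3% higher (limma). With voom on fragments 0 of 8 were higher and 3 lower, where 2230 of the 12578 tested genes were higher and 2788 lower. No member was higher at an unadjusted limma p under 0.05 (0 of 8), a count that was not made over all genes. The median log2 difference of the 8 genes was -0.08, against -0.01 over all tested genes. TFRC was lower with YAE1 guides by a log2 difference of -0.49 ± 0.05 (SE, limma adjusted p = 0.0024), a call kept in all 16 settings (-0.56 to -0.43). FTL was lower by -0.48 ± 0.07 (SE, limma adjusted p = 0.0051), a call lost with no filter (limma adjusted p = 0.054, range over its settings 2e-05 to 0.054). The receptor and the light chain therefore differed between the knockouts by similar amounts, one across the control level and the other above it.

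FTH1 showed a log2 difference of -0.38 (95% interval -0.73 to -0.04) between YAE1 and ABCE1 guides and did not pass (limma adjusted p = 0.085). It passed when genes under 5 FPKM were left out (limma adjusted p = 0.047), with quantile normalization (-0.49, limma adjusted p = 0.03), with voom (limma adjusted p = 0.0094) and after scaling to the summed FPKM (-0.45, limma adjusted p = 0.045), in a range of 0.0094 to 0.36. Without ABCE1 replicate 1 the difference was -0.21 (limma adjusted p = 0.36). The remaining 5 genes did not pass either. Their log2 differences were 0.01 for SLC11A2 (95% interval -0.16 to 0.17), 0.04 for NCOA4 (-0.06 to 0.14), 0.12 for ACO1 (-0.08 to 0.32), 0.09 for IREB2 (-0.10 to 0.27) and -0.16 for FBXL5 (-0.34 to 0.01). The signs of SLC11A2, NCOA4 and IREB2 depended on the setting. IREB2 passed without YAE1 replicate 1 (0.20, limma adjusted p = 0.0499), the range over its settings being 0.0499 to 0.86.

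By correlation of log2 values over the 6 libraries, among 7046 other genes averaging 5 FPKM or more, the pattern most like that of TFRC belonged to ENSG00000186566 (Pearson r = 0.997). That gene had 15.0 and 14.8 FPKM with ABCE1 guides, 12.8 and 13.3 FPKM with YAE1 guides, and 13.8 and 13.5 FPKM in control libraries, a narrower range than TFRC. The pattern most like that of FTH1 belonged to ENSG00000152683 (Pearson r = 0.997). It had 17.2 and 16.2 FPKM with ABCE1 guides, 15.6 and 15.1 FPKM with YAE1 guides, and 12.9 and 13.9 FPKM in control libraries, also a narrower range. Each is the best of many correlations over 6 points that fall into 3 groups, and the table does not pair these identifiers with names.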

How the data were processed

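RNA was sequenced as strand-specific 150 bp pairs from 1 µg of RNA per sample, per the labels' protocols. The authors deposited 1 table of FPKM values with a column per library, and the submitters' processing notes name GRCh37. The sources used here give no aligner, counter, strand setting or annotation. None of the identifiers matched the mouse reference tables (0 of 62492). A wider iron list, the targeted genes and marker lists were therefore not analysed here, and no sequence is shown. The genes and lists were chosen with earlier results of these data known. All 9 genes are named whatever their values, plus 1 most similar gene each for TFRC and FTH1.

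Fragment numbers were worked out from the steps in the FPKM values, in steps of 0.5 fragments with a tolerance of 1e-04 steps, for 38267 of the 38269 genes above 0. The step of 0.5 fragments was assumed, because FPKM stay the same when a gene's number and the library's total are scaled together. Depths, fragment numbers, counting errors and Poisson intervals rest on it. The smallest gene length that made all values whole was used, so numbers of low genes could be a fraction of the true ones. The fragment numbers added up to 99.4% to 99.5% of the totals found. Counting errors are the inverse square root of these numbers. limma 3.58.1 in R 4.3.3 was fitted to log2(FPKM + 1) of all 6 libraries (a mean per group, eBayes with a trend, 12578 genes averaging 1 FPKM or more, 3 residual and 3.62 prior degrees of freedom). The code was tested on simulated data. Alternatives were a pseudocount of 0.1, no filter, a mean of at least 5 FPKM, centring, quantile normalization, voom on fragments, only the 4 libraries compared, a replicate block, each library left out and, added later, scaling to the summed FPKM.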

Additional observations from a re-analysis of the deposited data

Results flagged for a closer look

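The changes against control guides differed between the 2 knockouts for 2 of the 8 tested iron genes, where 34.0% of all tested genes differed. TFRC was higher with ABCE1 guides than in controls and lower with YAE1 guides, the latter a call lost in 4 of its 16 settings. For TFRC the difference of the log2 changes (YAE1 minus ABCE1) was -0.49 (limma adjusted p = 0.0024). For FTL, which was higher with both, it was -0.48 (limma adjusted p = 0.0051). Values of both genes in each library stand in the results. Groups of 2 libraries were too small to look for outlying samples.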

How the results depend on the processing

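Of 357 values of single iron genes under an alternative, 321 kept their direction and their side of the threshold, 22 lost a call, 9 gained one and 5 changed sign. Those 5 were small differences between YAE1 and ABCE1 guides: SLC11A2 (-0.0022) without ABCE1 replicate 1, SLC11A2 (-0.046) and NCOA4 (-0.028) after scaling to the summed FPKM, and IREB2 (-0.025) and SLC11A2 (-0.040) without YAE1 replicate 2. With each library left out in turn, IREB2 ran from -0.025 to 0.20 and SLC11A2 from -0.040 to 0.054. Many of the 357 values could not change direction. No filter, the 5 FPKM floor, only the 4 libraries compared and the replicate block leave the log2 change as it is. Leaving out a library of the group not compared does so too. In these settings only the p-value could move. The count of iron genes called lower with ABCE1 guides (1) was 0 with no filter and after scaling to the summed FPKM, and 0 to 1 with a library left out. With centring, 4 rather than 7 were higher, and over all tested genes 3271 rather than 4715. For YAE1 guides the count called lower (1) was 0 with no filter or quantile normalization, 2 with centring or voom, and 0 to 2 with a library left out. Between YAE1 and ABCE1 guides the count lower (2) was 1 with no filter and 3 under 4 others (quantile normalization, voom, scaling to the summed FPKM and the 5 FPKM floor), and the count higher (0) was 0 to 1 with a library left out. Over all genes, a mean of at least 5 FPKM gave 2845 higher with ABCE1 and 2621 with YAE1 guides, which follows from fewer genes tested, and centring gave 3915 lower with ABCE1 guides. Between YAE1 and ABCE1 guides no filter gave 907 higher and 1184 lower, and leaving out a library 835 to 1641 higher and 976 to 2080 lower. Where not stated, the cause was not tested. Replicate numbers are shared by the titles, but deviations of same-numbered libraries did not go together (r = -0.05, -0.01 and -0.01). With the number as a replicate block the iron gene counts were 7 higher and 1 lower, 5 and 1, and 0 and 2, as without it, and over all genes 4579 and 2479, 4130 and 2134, and 1675 and 2103. Counting error was largest for SLC40A1 (32.4% to 37.8% per library), followed by SLC11A2 (4% to 4.82%).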
